A study of Mus musculus with 16 samples.

Results

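The genes described here are 34 mouse genes that mark Kupffer cells and other macrophages, read across the 16 liver libraries of the study. Their names were given as a list. Each was taken from the deposited table by mapping RefSeq transcript accessions to mouse symbols and keeping, for each gene, the accession with the highest mean count, which left 34 of 24970 genes. All 34 passed the filter on low counts that left 12913 genes for testing. The list holds 9 genes grouped here as genes of resident Kupffer cells, 3 complement C1q chains and 4 genes of antigen presentation by MHC class II. It also holds 7 genes of phagocytosis and the lysosome, 7 leukocyte receptors and adaptors, 2 transcription factors and 2 genes of recruited monocytes. The 9 genes are not all restricted to Kupffer cells.

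Messenger RNA of whole liver was sequenced in 4 groups of 4 libraries. Wild-type C57BL/6 Ntac mice received vehicle (2% DMSO in corn oil) or TCPOBOP, a compound that activates mouse CAR (the constitutive androstane receptor), at 3 mg/kg, given in 2 administrations 24 h apart, with livers taken at 48 h. Humanized PXR-CAR-CYP3A4/3A7 mice received the same vehicle or TCPOBOP, so both humanized groups lack the mouse receptor at its normal level. The sources used here do not state sex, age or batch, or whether the strains were bred together, so the genes exchanged in the humanized mice and any other difference between the colonies cannot be told apart.

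Kupffer cells are the resident macrophages of the liver sinusoids. They take up bacteria, worn erythrocytes and immune complexes from portal blood, recycle iron, and depend on signals from sinusoidal endothelial cells, stellate cells and hepatocytes, among them colony-stimulating factor 1 acting on its receptor Csf1r. The transcription factor PU.1, encoded by Spi1, sets up much of the gene programme shared by macrophages. When resident cells are lost, monocytes carrying Ccr2 can enter the liver and take on Kupffer cell genes step by step.

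Wild-type TCPOBOP libraries were the deepest, with totals of 30228724 to 37998473 counts, against 11827994 to 19483951 counts in the other 12 libraries. Levels are given in CPM (counts scaled to library size, with TMM factors between libraries), and 3 counts corresponded to 0.134 to 0.439 CPM. Mouse Nr1i3, which encodes CAR, averaged 100.3 CPM in the wild-type and 2.20 CPM in the humanized vehicle group, in accord with the strain labels. Some libraries stood apart. Wild-type vehicle replicate 2 had the highest level of its group for 24 of the 34 genes, and humanized TCPOBOP replicates 3 and 4 differed from replicates 1 and 2. The relation of a gene's level to its transcript length also differed between libraries. The Spearman rho across genes between relative level and length, which describes a library and is not a test over replicates, was 0.02 to 0.35 in the 8 wild-type libraries, -0.29 to -0.21 in humanized vehicle libraries, -0.42 and -0.37 in humanized TCPOBOP replicates 1 and 2, and 0.30 and 0.35 in replicates 3 and 4.

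Promoter sequences are shown for 4 listed genes whose levels differed between the strains under vehicle. These are Cd5l, Vsig4 and Clec4f of resident Kupffer cells and the C1q chain C1qb. The reason is that PU.1 is both a listed gene and a regulator of this cell type. The sequences are the 250 bases before the annotated start, 5′ to 3′ on the gene's strand, from RefSeq on GRCm38.p6 (mm10). Capitals mark GAGGAA, the core of the PU.1 motif, or its reverse complement TTCCTC.
Cd5l, chr3:87357631-87357880, plus strand: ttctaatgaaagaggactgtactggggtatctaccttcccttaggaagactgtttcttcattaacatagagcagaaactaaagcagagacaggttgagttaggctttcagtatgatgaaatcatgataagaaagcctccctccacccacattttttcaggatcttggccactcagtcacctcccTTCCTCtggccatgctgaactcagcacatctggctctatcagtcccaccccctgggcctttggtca
Vsig4, chrX:96293439-96293688, minus strand: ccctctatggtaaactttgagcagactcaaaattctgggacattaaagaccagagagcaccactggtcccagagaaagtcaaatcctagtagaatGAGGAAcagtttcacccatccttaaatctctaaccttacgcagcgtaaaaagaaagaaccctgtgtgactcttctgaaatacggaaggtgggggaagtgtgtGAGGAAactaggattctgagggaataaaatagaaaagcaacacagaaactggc
C1qb, chr4:136886201-136886450, minus strand: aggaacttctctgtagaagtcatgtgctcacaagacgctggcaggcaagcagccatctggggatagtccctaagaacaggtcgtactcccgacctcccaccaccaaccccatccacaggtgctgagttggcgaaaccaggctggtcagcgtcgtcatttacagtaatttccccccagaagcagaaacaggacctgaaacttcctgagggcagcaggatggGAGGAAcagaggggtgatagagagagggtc
Clec4f, chr6:83656117-83656366, minus strand: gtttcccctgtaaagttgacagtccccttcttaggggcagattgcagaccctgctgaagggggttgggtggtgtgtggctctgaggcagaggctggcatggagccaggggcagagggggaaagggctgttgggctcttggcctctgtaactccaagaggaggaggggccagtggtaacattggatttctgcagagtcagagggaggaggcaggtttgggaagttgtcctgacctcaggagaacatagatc
The match began 66 bases before the start in Cd5l, 155 and 53 bases before it in Vsig4 and 30 bases before it in C1qb. The Clec4f window held no match, and neither did the windows of Folr2, Cd163 and Timd4, which are not shown. Of the 34 genes, 25 had a promoter entry, and 13 of the 25 (52%) held the core on either strand, against 25.4% of the 10226 tested genes with an entry. The longer form GAGGAAGT, which contains the core, was in 1 of 25 (4%) and 2.83%. A match of letters is a description and not a binding site.

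Per kilobase of transcript, the only scale on which levels of different genes are compared here, Cd5l stood first in wild-type vehicle livers at 107.9 ± 56.6 CPM per kb (SD, n = 4). Cd5l encodes a protein that macrophages secrete and that inhibits apoptosis. The Kupffer cell lectin Clec4f followed at 81.5 ± 5.88, C1qb at 69.9 ± 29.0, the iron exporter Slc40a1 at 67.5 ± 13.6, C1qc at 66.4 ± 31.1 and C1qa at 59.1 ± 15.3 CPM per kb. The ranges of these 6 genes over libraries overlapped each other, apart from that of Clec4f above that of C1qa. The genes of recruited cells stood last, Itgam at 0.95 ± 0.34 and Ccr2 at 0.36 ± 0.16 CPM per kb. The pan-leukocyte gene Ptprc was at 2.85 ± 0.24 CPM per kb. In wild-type TCPOBOP, humanized vehicle and humanized TCPOBOP livers Clec4f was at 61.2 ± 6.91, 39.5 ± 5.63 and 51.6 ± 14.5 CPM per kb. The macrophage marker Adgre1 was at 11.6 ± 4.53 in wild-type vehicle livers and at 9.46 ± 1.03, 2.27 ± 0.48 and 5.09 ± 4.32 in those groups. Its lowest humanized TCPOBOP library was at 0.91 CPM per kb. Both markers were thus present in every group, which is what the label of the list rests on here. Of the 34 genes, 33 had a transcript length.

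Under vehicle, Kupffer cell genes were lower in humanized than in wild-type liver. This comparison asks how the strains differed before any CAR agonist was given. Of the 34 genes, 18 (52.9%) were lower and 0 higher at an adjusted p under 0.05 in edgeR's quasi-likelihood test over all genes, against a background of 8.95% of all tested genes lower and 7.11% higher. Among the 34, 21 were lower and 0 higher at an unadjusted p under 0.05, which 34.4% of all tested genes had in either direction, and DESeq2 called 21 lower and 0 higher. The log2 difference was below 0 for 33 of 34, with a median of -0.88 against 0.00 over all tested genes. The 18 genes were 1.71-fold to 5.10-fold lower. For 17 of the 34 every humanized library lay below every wild-type library, against 12% of all tested genes. In whole liver, fewer cells of a type and less RNA per cell cannot be told apart.

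**Figure D1:**
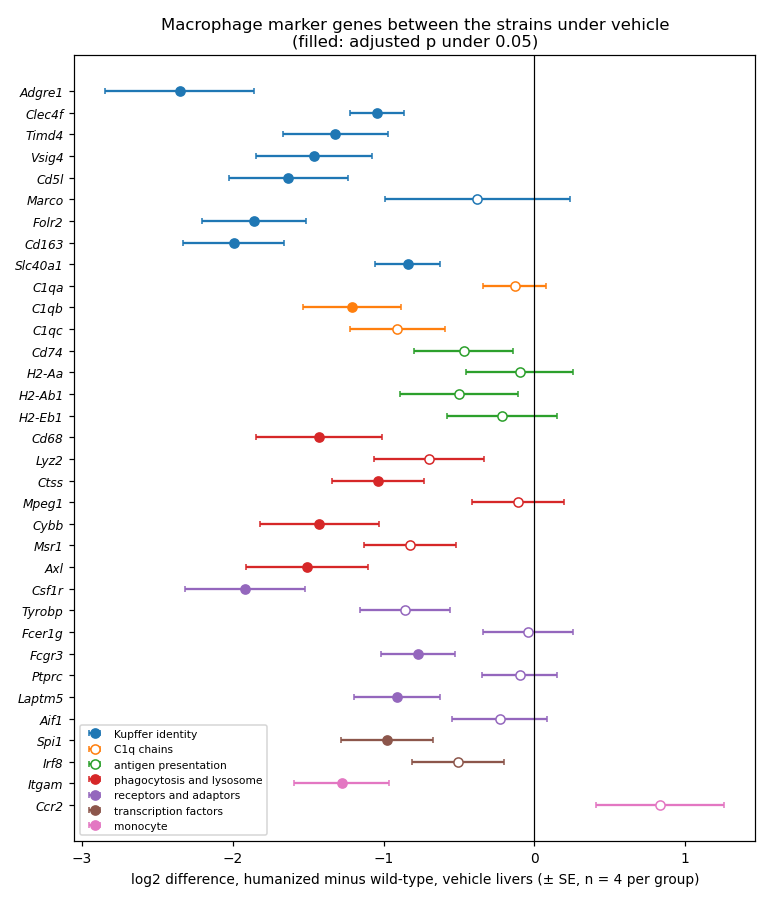
Log2 difference between humanized and wild-type vehicle livers for each of the 34 genes (horizontal axis, humanized minus wild-type, ± SE, n = 4 per group), colored by role, with filled points for an adjusted p under 0.05. Points run from -2.35 for Adgre1 to 0.83 for Ccr2, and 33 of 34 lie left of 0.

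Of the 9 genes of resident Kupffer cells, 8 were lower in humanized vehicle livers. Adgre1 (NM_010130, mm10 chromosome 17, 57358581 to 57483529), which encodes the F4/80 antigen, was at 34.6, 58.8, 32.0 and 25.1 CPM in the wild-type libraries and at 7.67, 9.08, 5.33 and 7.30 CPM in the humanized libraries. Every humanized library lay below every wild-type library. The difference was -2.35 ± 0.49 on the log2 scale, or 5.10-fold (adjusted p = 0.00848).

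Cd163 (NM_001170395, chromosome 6, 124304636 to 124330529), the scavenger receptor for haemoglobin bound to haptoglobin, was at 70.1, 35.4, 67.8 and 50.1 CPM in wild-type and at 15.3, 13.3, 11.2 and 16.1 CPM in humanized livers. It was 3.98-fold lower (-1.99 ± 0.33, adjusted p = 0.00238), with no overlap. Clec4f (NM_016751, chromosome 6, 83644542 to 83656116), a lectin made in the mouse almost only by Kupffer cells, was at 199, 220.2, 202 and 185 CPM in wild-type and at 117, 92.9, 84.4 and 96.2 CPM in humanized livers. The groups did not overlap, and the humanized level was 2.06-fold lower (-1.04 ± 0.18, adjusted p = 0.0031). Folr2 (NM_008035, chromosome 7, 101839988 to 101857190), the folate receptor of tissue-resident macrophages, was at 15.6, 28.0, 20.7 and 12.3 CPM in wild-type and at 6.22, 5.12, 4.20 and 5.43 CPM in humanized livers, a 3.63-fold difference (-1.86 ± 0.35, adjusted p = 0.0045).

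The other 4 were Cd5l (-1.63, adjusted p = 0.0152), the complement receptor Vsig4 (-1.46, adjusted p = 0.0209), the phosphatidylserine receptor Timd4 (-1.32, adjusted p = 0.021) and Slc40a1 (-0.84, adjusted p = 0.0176), each without overlap. Cd5l, whose promoter is given above, was at 219.6 ± 115 CPM in wild-type and 70.8 ± 21.3 CPM in humanized livers (SD, n = 4). Slc40a1, or ferroportin, is also made by hepatocytes, and it moved least of the 8. The scavenger receptor Marco did not pass (-0.38, adjusted p = 0.681). It was at 20.5, 68.7, 24.0 and 3.91 CPM in wild-type and at 52.7, 12.3, 12.9 and 12.1 CPM in humanized livers, with overlapping groups.

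**Figure D2:**
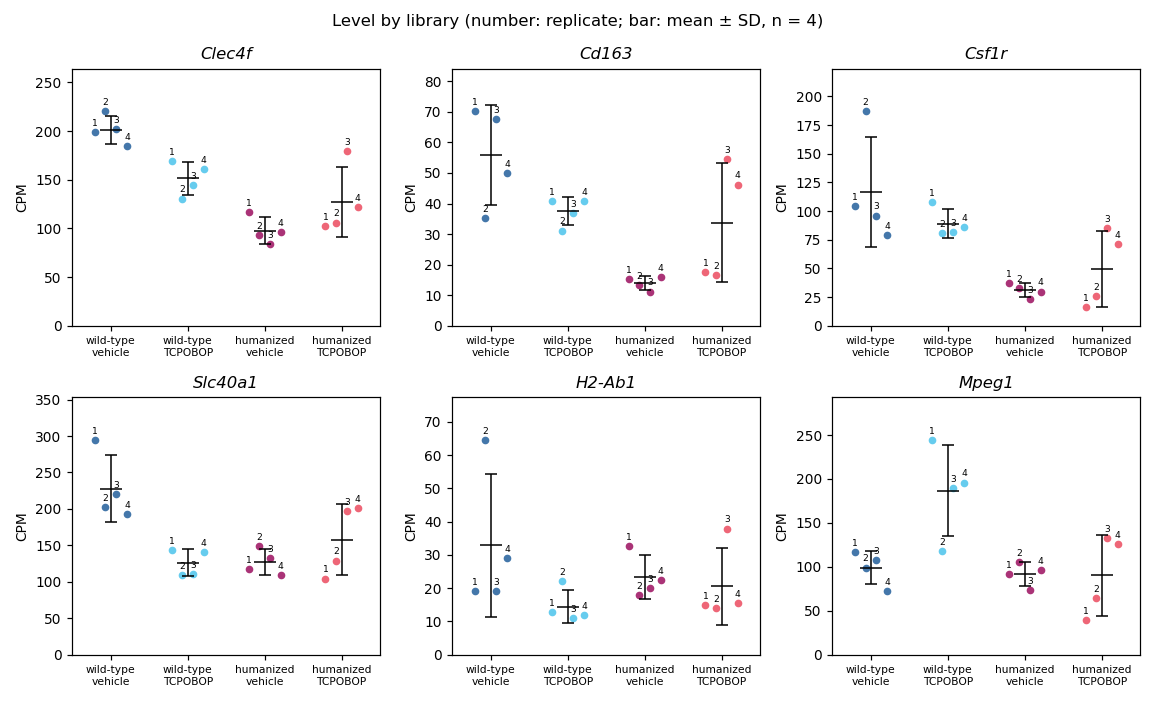
Level in CPM (vertical axis, from 0) of 6 genes in each of the 16 libraries, by group, with replicate numbers beside the points and bars for the mean ± SD (n = 4). Clec4f, Cd163, Csf1r and Slc40a1 are lower in humanized vehicle than in wild-type vehicle libraries without overlap, and humanized TCPOBOP replicates 3 and 4 lie above replicates 1 and 2 for all 6 genes.

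The 3 chains of C1q, which assemble in fixed proportion into the first component of complement and which macrophages make, gave unlike values, and 1 of the 3 passed. C1qb (NM_009777, chromosome 4, 136880126 to 136886200) was at 75.6, 119.7, 63.1 and 45.7 CPM in wild-type and at 46.2, 30.7, 22.7 and 31.7 CPM in humanized vehicle livers. One humanized library lay within the wild-type range, and the gene was 2.31-fold lower (-1.21 ± 0.33, adjusted p = 0.0221). C1qa (NM_007572, chromosome 4, 136895916 to 136898844) was at 69.3, 75.4, 62.0 and 39.1 CPM in wild-type and at 76.7, 46.6, 48.1 and 53.0 CPM in humanized livers. These values overlapped (-0.13 ± 0.21, adjusted p = 0.68). C1qc did not pass at -0.91 ± 0.32 (adjusted p = 0.057).

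The ratio of C1qa to C1qb, chosen after these values were seen, was 0.92, 0.63, 0.98 and 0.86 in wild-type vehicle livers and 1.66, 1.52, 2.12 and 1.67 in humanized vehicle livers, with no overlap. The log2 difference of the ratio was 1.05 (two-sided exact permutation p = 0.0286, the smallest that 4 against 4 libraries allow, and 0.0858 after Benjamini-Hochberg adjustment over 9 such tests). C1qa to C1qc gave 0.70 and C1qb to C1qc gave -0.34, each with the same exact p. In humanized TCPOBOP livers C1qa to C1qb was 2.97 and 1.36 in replicates 1 and 2 and 1.07 and 1.12 in replicates 3 and 4. The 3 transcripts are of like length, 1040, 1088 and 1203 bases.

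**Figure D3:**
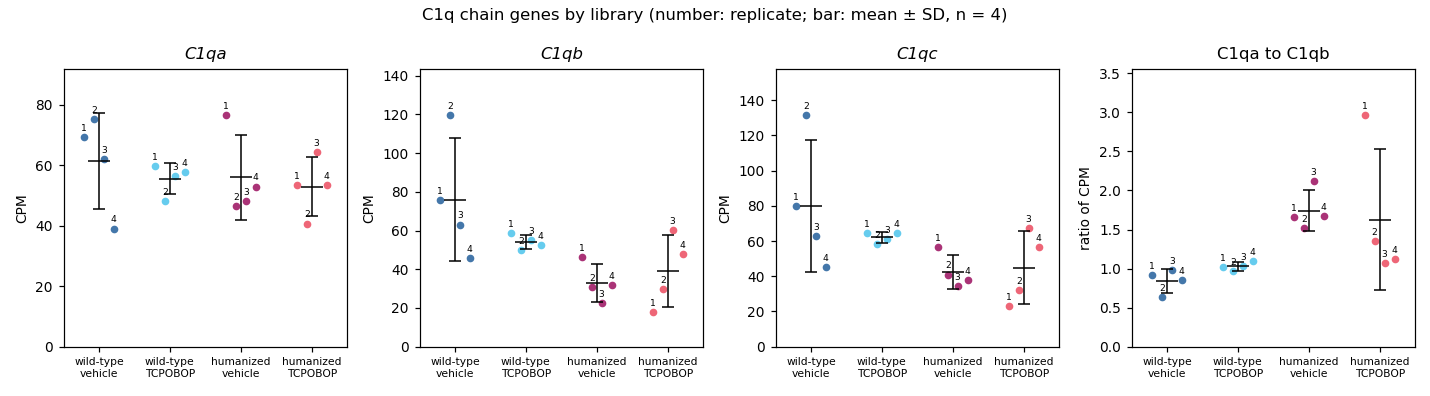
Levels in CPM of C1qa, C1qb and C1qc and the ratio of C1qa to C1qb (vertical axes, from 0) in each library, by group, with bars for the mean ± SD (n = 4). The ratio is 0.63 to 0.98 in wild-type vehicle and 1.52 to 2.12 in humanized vehicle libraries.

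Genes of antigen presentation did not pass. Of Cd74, the invariant chain, and H2-Aa, H2-Ab1 and H2-Eb1, chains of the MHC class II molecules, 0 of 4 passed by edgeR under vehicle, while DESeq2 called 0 and 0 had an unadjusted p under 0.05. Their log2 differences ran from -0.50 for H2-Ab1 to -0.10 for H2-Aa. MHC class II is shared with dendritic cells and B cells. Of 8 tested genes of the class II pathway outside the list, the regulators Rfx5 (0.67, adjusted p = 0.0198) and Rfxank (1.17, adjusted p = 0.0165) were higher in humanized livers.

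Of the 7 genes of phagocytosis and the lysosome, 4 were lower. They were Axl, a receptor for dying cells (-1.51 ± 0.41, adjusted p = 0.0219), the lysosomal glycoprotein Cd68 (-1.43 ± 0.42, adjusted p = 0.0304), Cybb, a subunit of the phagocyte NADPH oxidase (-1.43 ± 0.39, adjusted p = 0.024), and the lysosomal protease Ctss (-1.04 ± 0.30, adjusted p = 0.0302), all without overlap. The scavenger receptor Msr1 was at 19.4, 15.4, 15.8 and 15.1 CPM in wild-type and 12, 6.98, 8.13 and 9.81 CPM in humanized livers. These groups did not overlap, but the gene missed the threshold (-0.82, adjusted p = 0.0717). With its 2 RefSeq transcripts summed Msr1 passed narrowly (-1.04, edgeR adjusted p = 0.0472). Lysozyme Lyz2 (-0.70, adjusted p = 0.182), whose sequence is close to that of its neighbour Lyz1, and the pore-forming Mpeg1 (-0.11, adjusted p = 0.823) did not pass.

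Among receptors and adaptors, 3 of 7 were lower. Csf1r (NM_001037859, chromosome 18, 61105572 to 61131139), on which macrophage survival depends, was at 104, 187, 96.1 and 79.3 CPM in wild-type and at 37.6, 32.8, 23.0 and 29.8 CPM in humanized livers. The difference was 3.78-fold without overlap (-1.92 ± 0.40, adjusted p = 0.00772). Laptm5, a lysosomal membrane protein of leukocytes (-0.91, adjusted p = 0.0393), and the immunoglobulin receptor Fcgr3 (-0.77, adjusted p = 0.043) also passed, close to the threshold. Without wild-type vehicle replicate 2 neither passed, at -0.44 for Laptm5 (adjusted p = 0.118) and -0.67 for Fcgr3 (adjusted p = 0.0729). The adaptor Tyrobp missed the threshold (-0.86, adjusted p = 0.0563), and Ptprc (-0.10), Aif1 (-0.23) and Fcer1g (-0.04) had differences near 0. Fcgr3 shares sequence with related Fc receptor genes, so its value is less certain.

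Of the 34 genes, 5 lie on chromosome 1 with Nr1i3, which was exchanged in the humanized mice. Fcer1g (171229572 to 171234349), the common gamma chain of Fc receptors, lies 10.7 kb from mouse Nr1i3 at their nearest ends, and Fcgr3 lies 148.0 kb away. Fcer1g was at 8.80, 11.0, 6.48 and 5.18 CPM in wild-type and 10.8, 6.05, 7.85 and 5.84 CPM in humanized vehicle livers, with overlapping groups. The other 3, Ptprc, Marco and Slc40a1, lie more than 33038 kb away. None of the 34 lies on the chromosomes of Nr1i2 or Cyp3a11.

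Spi1 (-0.98 ± 0.30, adjusted p = 0.0379) was the 1 of 2 transcription factors that passed, while Irf8, which monocyte and dendritic cell lineages need, did not (-0.50, adjusted p = 0.248). Itgam, an integrin subunit of monocytes and neutrophils, was lower (-1.28, adjusted p = 0.0161). Ccr2, the receptor that brings monocytes out of the marrow, was the only gene of the 34 with a higher value in humanized vehicle livers (0.83 ± 0.43, adjusted p = 0.174). It had 41 counts in the wild-type and 68 in the humanized vehicle group, so counting error weighs more on it than on the other genes.

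Related genes outside the list were read from the same test. Of 17 other Kupffer cell genes, 3 were lower under vehicle, the phagocytosis checkpoint receptor Sirpa (-0.93, adjusted p = 0.0168), Cdh5 (-1.59, adjusted p = 0.0222), a cadherin that endothelium also makes, and the chemokine Ccl24 (-1.19, adjusted p = 0.0283). Their median was -0.43. Of 13 phagocyte receptors 3 were lower, the mannose receptor Mrc1 (-1.34, adjusted p = 0.0165), the integrin Itgb2 (-1.49, adjusted p = 0.0199) and Fcgr2b (-1.07, adjusted p = 0.0241), which is also an endothelial gene. The 6 tested ligands and growth factors around Csf1r had a median of -0.30, with 2 at an unadjusted p under 0.05. Of 10 myeloid transcription factors Irf5 was lower (-0.58, adjusted p = 0.024), and the 7 tested inflammatory genes had a median of -0.38. Of the 31 genes outside the list that passed under vehicle, 8 passed in all 16 fits without 1 library. Nr1i3, Nr1i2 and Cyp3a11, read to check the labels, are among these 8. Of the genes named in this paragraph, Sirpa and Mrc1 were each lost in 1 fit. Ccl24, Itgb2 and Fcgr2b were each lost in 3, and Cdh5 and Irf5 in 4.

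Markers of other cell types moved as well, and their part in the result was not tested. Of 14 sinusoidal endothelial markers 6 were lower under vehicle, among them Dnase1l3 (-1.42, adjusted p = 0.016), Flt4 (-1.32, adjusted p = 0.0149) and Stab2 (-1.23, adjusted p = 0.0163). All 14 had values below 0, with a median of -1.01. All 14 also had an unadjusted p under 0.05, against 34.4% of all tested genes in either direction. For 13 every humanized library lay below every wild-type library, against 12% of all tested genes. The summed level of the 14 markers was 659 to 1052 CPM in wild-type and 374 to 441 CPM in humanized vehicle livers. The 9 Kupffer cell genes summed to 614 to 1033 and 310.3 to 439.5 CPM. Both sums were without overlap. Of the 5 tested erythroid genes 4 were lower, all of them globins, with sums of 146 to 233 and 105 to 132 CPM over the 7 listed. Hba-a1 and Hba-a2 had near-equal counts in every library (90 and 86 in wild-type vehicle replicate 1), so their calls may not be separate. Both were lost in 3 of the 16 fits without 1 library, Hbb-bt in 4 and Hbb-bs in 1. Of 14 stellate cell markers 3 were lower and 1 higher, with sums of 434 to 635 and 415 to 448 CPM, and of 10 hepatocyte markers only Alb passed (-0.78, adjusted p = 0.0386). Other leukocytes showed no common direction. Of 4 tested lymphocyte markers Cd4 was lower (-2.24, adjusted p = 0.00979), of 4 tested monocyte and dendritic cell markers Clec9a was higher (1.68, adjusted p = 0.004) and Zbtb46 lower (-1.03, adjusted p = 0.0243), and the 10 neutrophil markers summed to 5.58 to 17.1 and 13.7 to 20.9 CPM. Of 4 tested cholangiocyte markers Sox9 was higher (1.37, adjusted p = 0.0198).

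**Figure D4:**
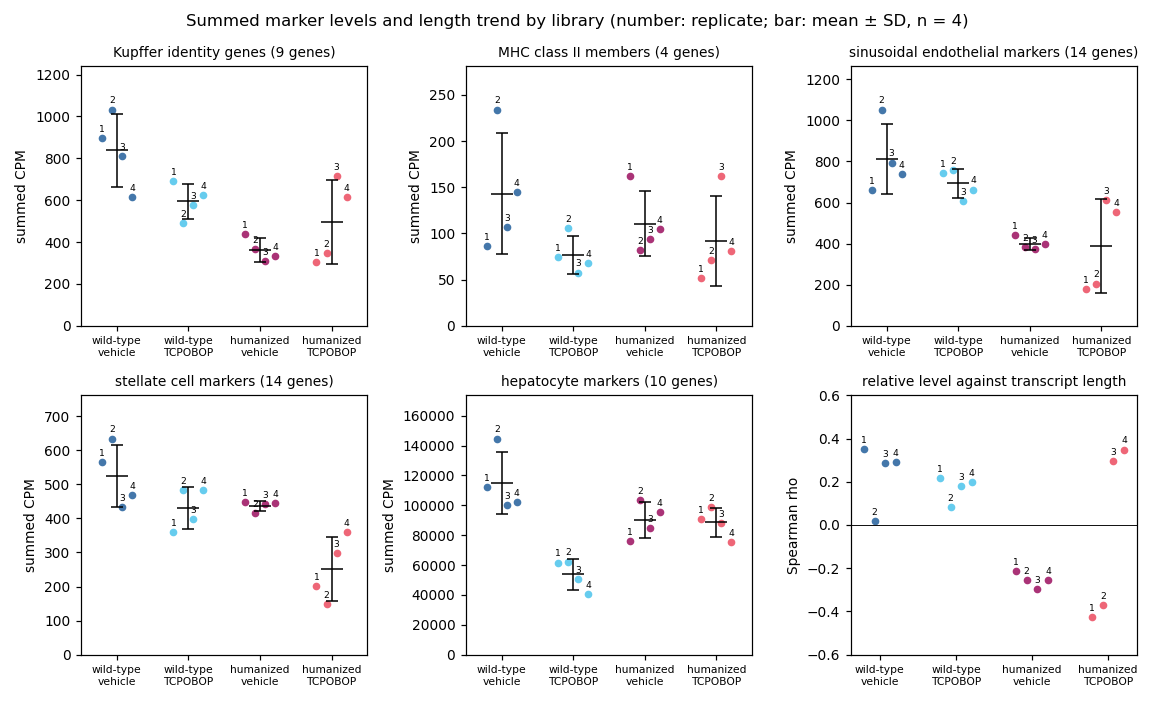
Summed CPM of 5 marker lists in each library (vertical axes, from 0) and, last, the Spearman rho across genes between relative level and transcript length, by group, with bars for the mean ± SD (n = 4). Kupffer cell sums are 614 to 1033 CPM in wild-type and 310.3 to 439.5 CPM in humanized vehicle libraries, and in humanized TCPOBOP libraries replicates 3 and 4 exceed replicates 1 and 2 in both the Kupffer cell and the endothelial panel.

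Transcript length moved with the strain under vehicle. The median log2 difference of all tested genes fell from 0.38 for transcripts of up to 1637 bases to -0.27 for those of 4798 bases or more, the extremes of 5 classes of near-equal size. The 14 listed genes of up to 1637 bases had a median of -0.82, and the 8 of 3400 to 4797 bases one of -1.36, against -0.19 over all genes of that class. With each library's trend with length and GC content taken out, 18 of the 18 genes remained called. Of the 33 listed genes with a length 21 were lower, and their median was -1.05.

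The count depended on single libraries. Without humanized vehicle replicate 4 the count of lower genes was 6, and without replicate 3 it was 7, where all genes called dropped from 2074 to 794 and 770. In the 14 other fits that left out 1 library it was 13 to 21, and 13 without wild-type vehicle replicate 2. Adgre1, Clec4f, Folr2, Cd163 and Csf1r passed in all 16 such fits.

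In wild-type mice TCPOBOP lowered 1 of the 34 genes, Slc40a1. This comparison asks what the compound does to liver macrophage genes where its mouse receptor is intact. Over all tested genes 4.99% were lower and 8.1% higher, so 1 of 34 lower and 0 higher is no more than the background. At an unadjusted p under 0.05, which 25.1% of all tested genes had, 6 were lower and 1 higher, and DESeq2 called 2 lower and 1 higher. Slc40a1 (NM_016917, chromosome 1, 45908070 to 45926532) was at 294, 203, 220.4 and 193 CPM under vehicle and at 144, 109, 111 and 141 CPM under TCPOBOP. Every treated library lay below every vehicle library (-0.85 ± 0.21, 1.80-fold, adjusted p = 0.0114), and the gene passed under all 25 alternatives.

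The 4 class II genes had values below 0 after TCPOBOP in wild-type liver, without passing. H2-Ab1 (NM_207105, chromosome 17, 34263227 to 34269418) was at 19.1, 64.4, 19.1 and 28.9 CPM under vehicle and at 12.9, 22.0, 10.9 and 12 CPM under TCPOBOP. Only treated replicate 2 reached into the vehicle range (-1.19 ± 0.39, adjusted p = 0.0549). H2-Eb1 (-0.95, adjusted p = 0.102), H2-Aa (-0.94, adjusted p = 0.0951) and Cd74 (-0.75, adjusted p = 0.151) had values in the same direction, and all 4 had an unadjusted p under 0.05. Mpeg1 (NM_010821, chromosome 19, 12460770 to 12465285), which encodes perforin-2, went the other way. It was at 117, 99.1, 108 and 72.5 CPM under vehicle and 244, 118, 189.6 and 196 CPM under TCPOBOP, without overlap, and missed the threshold narrowly (0.92 ± 0.31, adjusted p = 0.0585).

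Marco, a scavenger receptor, had the second lowest value of the 34 and did not pass. It was at 20.5, 68.7, 24.0 and 3.91 CPM under vehicle and at 14.3, 10.7, 18.8 and 10.1 CPM under TCPOBOP. The groups overlapped, with vehicle replicate 2 far above the other 7 libraries compared (-1.12 ± 0.61, adjusted p = 0.276), and without that replicate the value was -0.25. The log2 change was below 0 for 30 of 34, with a median of -0.30 against -0.02 over all genes, but without wild-type vehicle replicate 2 the median was -0.05 and 10 genes changed sign. Without that library the count called lower was still 1, where 6.6% of all tested genes were lower. Without wild-type TCPOBOP replicate 2 or wild-type vehicle replicate 1 or 3 the count was 2, where 3.72 to 4.27% were. Without humanized TCPOBOP replicate 1 or 3 it was 3, where 6.86% and 5.35% were. Mpeg1 passed without wild-type TCPOBOP replicate 2 or humanized TCPOBOP replicate 1, 3 or 4. Other genes of resident cells that did not pass ran from Cd163 (-0.58, adjusted p = 0.278) and Clec4f (-0.41, adjusted p = 0.155), whose groups did not overlap, to Vsig4 (-0.20, adjusted p = 0.81) and Timd4 (-0.12, adjusted p = 0.881). The TCPOBOP group was also the most deeply sequenced.

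Among genes outside the list, the bacterial lipoprotein receptor Tlr2 rose in wild-type liver from 4.06 ± 1.05 to 23.7 ± 7.77 CPM (SD, n = 4; 2.55, adjusted p = 9.14e-05), the 1 of 7 tested inflammatory genes that passed. Hepatocytes can make Tlr2 too. Of the phagocyte receptors and ligands, Tyro3 rose (1.42, adjusted p = 0.0288), from 0.546 to 1.47 CPM. Gas6, a ligand of Axl, passed as lower (-1.78, adjusted p = 0.0498), at 179, 501, 64.3 and 33.4 CPM under vehicle and 64.9, 68.4, 49.0 and 44.6 CPM under TCPOBOP. Its groups overlapped, the call was lost in 11 of the 16 fits without 1 library, and without vehicle replicate 2 the value was -0.69 (adjusted p = 0.329). Irf5 fell (-0.65, adjusted p = 0.0092) and so did Cd4 (-1.42, adjusted p = 0.025). Tyro3 was lost in 5 and Cd4 in 4 of those fits, and Tlr2 and Irf5 in 0. Of 10 hepatocyte markers 5 fell, among them Alb (-1.56, adjusted p = 0.000271), and their sum was 100210 to 144760 CPM under vehicle and 40469 to 62334 CPM under TCPOBOP. The part of this shift in the values of the listed genes was not tested. Medians in wild-type liver were -0.23 for sinusoidal endothelial, -0.31 for stellate and -0.15 for other Kupffer cell genes.

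In humanized mice TCPOBOP raised 1 and lowered 1 of the 34 genes, against 1.32% of all tested genes higher and 1.19% lower. Cd163 was at 15.3, 13.3, 11.2 and 16.1 CPM under vehicle and at 17.7, 16.5, 54.7 and 46.2 CPM under TCPOBOP. Replicates 3 and 4 were far above replicates 1 and 2, and all 4 were above the vehicle range (1.28 ± 0.33, adjusted p = 0.0484). Ccr2 (NM_009915, chromosome 9, 124101918 to 124109140) was at 2.90, 1.16, 1.40 and 2.09 CPM under vehicle and at 0.591, 0.419, 0.615 and 0.237 CPM under TCPOBOP, without overlap (-2.01 ± 0.49, adjusted p = 0.0399). Its 4 treated libraries held 15 counts in all. The call for Cd163 was lost in 13 of the 16 fits without 1 library, with adjusted p = 0.0549 to 0.161, and that for Ccr2 in 8 of 16.

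**Figure D5:**
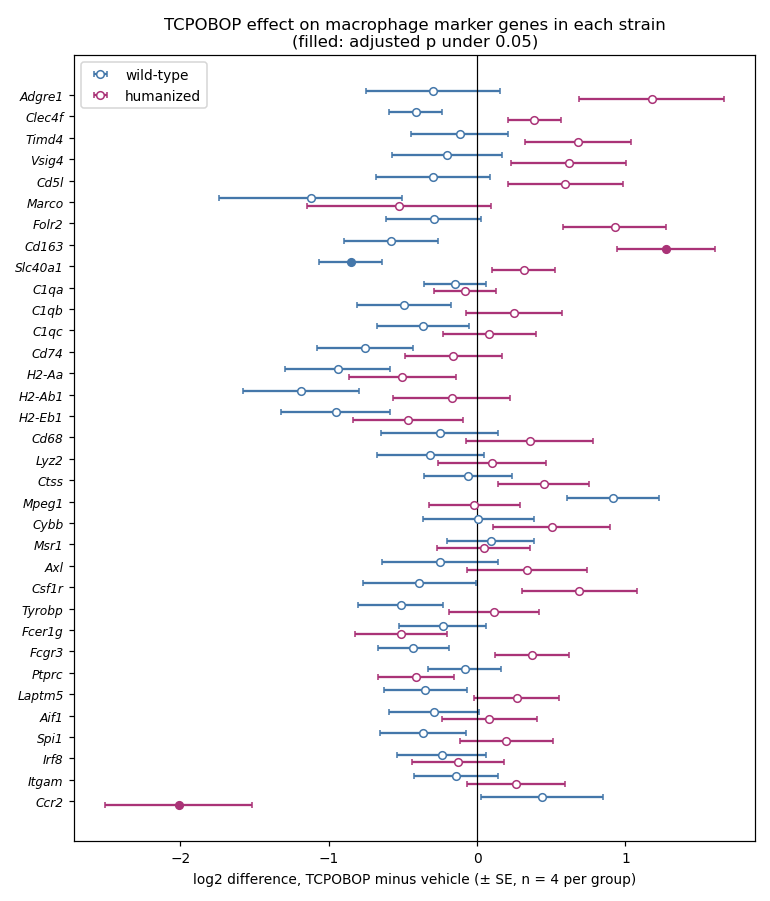
Log2 difference between TCPOBOP and vehicle livers for each of the 34 genes in wild-type and in humanized mice (horizontal axis, TCPOBOP minus vehicle, ± SE, n = 4 per group), with filled points for an adjusted p under 0.05. Only Slc40a1 in wild-type and Cd163 and Ccr2 in humanized mice are filled, at -0.85, 1.28 and -2.01.

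The humanized TCPOBOP libraries fell into pairs. For 28 of the 34 genes replicates 3 and 4 were both above replicates 1 and 2, and for 0 both below, against 31.5% of all tested genes above and 32.8% below. These pairs were seen in the data and are not groups of the study. Csf1r was at 16.2, 26.2, 84.8 and 71.0 CPM and Adgre1 at 2.95, 6.14, 30.9 and 25.8 CPM in replicates 1 to 4. The sum of the 9 Kupffer cell genes was 305.2, 349, 714 and 614 CPM, and that of the 14 endothelial markers 178, 206, 611 and 555 CPM. All 14 endothelial and 11 of 14 stellate markers were higher in both replicates 3 and 4, against 2 of 10 hepatocyte markers. The same libraries differed in the length relation given above. With the length and GC trend taken out the count was 30 of the 33 genes with a length, against 28.9% of all such tested genes. Means of Kupffer cell genes over this group average these unlike libraries. Without replicate 1, 3 genes passed as higher, Cd163, Adgre1 (1.54, adjusted p = 0.027) and Folr2 (1.21, adjusted p = 0.0242). In that fit 4.97% of all tested genes were higher, against 1.32% with all libraries.

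Outside the list, TCPOBOP in humanized mice lowered the stellate cell genes Ecm1 (-1.11, adjusted p = 0.00394), Colec11 (-1.04, adjusted p = 0.0164) and Hand2 (-1.06, adjusted p = 0.0399), and Id1 (-1.42, adjusted p = 0.0397), a transcriptional regulator that Kupffer cells share with other liver cells. Ecm1 passed in all 16 fits without 1 library, while Colec11 was lost in 1, Id1 in 8 and Hand2 in 12.

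Whether the strains responded differently was tested as an interaction, the humanized effect minus the wild-type effect. It was past the threshold for 3 of the 34 genes, 2 higher and 1 lower, against 3.48% and 3.98% of all tested genes. For Cd163 the interaction was 1.85 ± 0.46 (adjusted p = 0.0183), from -0.58 in wild-type and 1.28 in humanized livers, and it passed in all 16 fits without 1 library. For Slc40a1 it was 1.17 ± 0.30 (adjusted p = 0.0231), from -0.85 and 0.31. For Ccr2 it was -2.45 ± 0.64 (adjusted p = 0.0265), from 0.43 and -2.01, on few counts. The last 2 were each lost in 5 of the 16 fits, Slc40a1 without wild-type TCPOBOP replicate 3, humanized vehicle replicate 1 or 4 or humanized TCPOBOP replicate 3 or 4 (adjusted p = 0.0503 to 0.0605). Ccr2 was lost on leaving out humanized vehicle replicate 1 or 4, humanized TCPOBOP replicate 4 or wild-type TCPOBOP replicate 3 or 4 (adjusted p = 0.0546 to 0.0688). The interaction was above 0 for 29 of 34, with a median of 0.59. The median was 0.29 without wild-type vehicle replicate 2 and 0.31 without humanized TCPOBOP replicate 3. Higher were 7 of the 34 genes without humanized TCPOBOP replicate 1, where 7.35% of all tested genes were higher. The count was 1 without replicate 3 or 4 of that group, humanized vehicle replicate 1 or 4 or wild-type TCPOBOP replicate 3. In those fits 2.15 to 3.01% of all tested genes were higher. Both effects use the vehicle group of their own strain, which lay apart for 18 of these genes.

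Outside the list the interaction was positive for the myeloid factors Cebpa (1.44, adjusted p = 0.0291) and Irf5 (0.79, adjusted p = 0.0399), of which Cebpa is foremost a hepatocyte gene. It was negative for Rfx5 (-1.08, adjusted p = 0.0117). Rfx5 passed in all 16 fits without 1 library, while Cebpa was lost in 6 and Irf5 in 11.

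Under TCPOBOP, 4 of the 34 genes were lower in humanized than in wild-type liver and 0 higher, against 12.8% and 11.8% of all tested genes, so the share lies at the background. Among the 34, 7 were lower and 0 higher at an unadjusted p under 0.05, which 38.1% of all tested genes had, and DESeq2 called 4 lower and 0 higher. The 4 were Mpeg1 (-1.04 ± 0.31, adjusted p = 0.0208), Msr1 (-0.87 ± 0.30, adjusted p = 0.0435), Itgam (-0.87 ± 0.30, adjusted p = 0.0432) and Ccr2 (-1.61 ± 0.48, adjusted p = 0.0216). Of these 2, Itgam and Ccr2, had groups without overlap, against 15.7% of all tested genes. Each of the 4 calls was lost in 3 to 10 of the 16 fits without 1 library, and 0 held in every other setting. The median was -0.42 against 0.01 over all genes, and Adgre1 (-0.88, adjusted p = 0.174), Clec4f (-0.25, adjusted p = 0.334) and Cd163 (-0.14, adjusted p = 0.775) did not pass. The count was 13 without humanized TCPOBOP replicate 3, where 13.3% of all tested genes were lower. It was 0 without replicate 2, where 9.14% were. It was 1 without wild-type TCPOBOP replicate 1, 3 or 4, where 8.52 to 11.1% were. It was 2 without wild-type vehicle replicate 1 or 3, humanized vehicle replicate 3 or humanized TCPOBOP replicate 1, where 10.9 to 12.4% were.

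Of 6 tested ligands and growth factors that act on macrophages, 3 were lower in humanized than in wild-type TCPOBOP livers. Csf1 (-1.15, adjusted p = 0.0151), Tgfb1 (-1.11, adjusted p = 0.0243) and the receptor subunit Csf2rb (-0.87, adjusted p = 0.0144) passed the threshold. Of 10 myeloid transcription factors 4 were higher, among them Cebpa (1.04, adjusted p = 0.0107), and 2 lower, among them Fli1 (-1.37, adjusted p = 0.0157). Tlr2 was lower (-2.55, adjusted p = 7.73e-05), as were Cxcl10 (-1.84, adjusted p = 0.00475) and, among other Kupffer cell genes, the haem oxygenase Hmox1 (-1.16, adjusted p = 0.012) and Sirpa (-0.78, adjusted p = 0.0199). Spp1, or osteopontin, was higher (1.09, adjusted p = 0.00249). Of 14 sinusoidal endothelial markers 6 were lower, led by Lyve1 (-2.16, adjusted p = 0.000932), and of 14 stellate cell markers 5. Of the 38 genes outside the list that passed under TCPOBOP, 19 passed in all 16 fits without 1 library. Nr1i3, Nr1i2, Cyp2b10, Cyp3a11 and Mki67, read to check the labels, are among these 19. Csf2rb, Cebpa, Tlr2, Cxcl10, Spp1 and Lyve1 were lost in 0 fits. Fli1 and Hmox1 were each lost in 1, Csf1 in 2, and Tgfb1 and Sirpa each in 3. The part of the endothelial and stellate markers in the values of the listed genes was not tested.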

How the data were processed

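Messenger RNA of mouse liver was sequenced in 16 libraries, 4 per group, after poly(A) selection, per the labels' protocols. The authors deposited counts per RefSeq transcript accession. The submitters' processing notes name STAR, DESeq2 and mm10, while the sources used here do not state the counting program, strandedness or versions. Of counts of 20 or more, 74.9% were even, so the values, used as given, may be halved counts, and floors cover counting error at most. Of 40458 accessions, 40219 were matched to symbols through RefSeq and 125 through GENCODE, and the 114 others (0.227 to 0.582% of a library) were kept as genes of their own. Each of the 24970 genes took its accession with the highest mean count.

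One model over the 16 libraries was fitted in R 4.3.3 (edgeR 4.0.16, limma 3.58.1) with 1 mean per group, filterByExpr, TMM and two-sided quasi-likelihood F tests, which left 12913 genes at a common biological coefficient of variation of 0.259 with 12 residual degrees of freedom. Adjusted p-values are Benjamini-Hochberg values over all genes tested, with a threshold of 0.05. The labels call the libraries of a group replicates without naming animals for all of them, so p-values measure the spread between these libraries. The named genes are all 34 members and, of other lists, up to 4 called genes with the smallest p per comparison. Some genes of those other lists are not reported here. The members and lists were chosen with earlier results of these data known. Same-numbered libraries were checked for shared deviations, and since not every pair correlated above 0.1 the replicate block was kept as an alternative. The alternatives were DESeq2 1.42.0, its size factors, no filter, summed accessions, the compared groups alone, thinned libraries, a replicate block, each library left out and, chosen after seeing the data, a transcript length and GC trend (RefSeq and GENCODE lengths) and the genes with a length alone.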

Additional observations from a re-analysis of the deposited data

Results flagged for a closer look

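In 9 of 136 sets of 4 libraries (34 genes in 4 groups) the highest or lowest library lay apart from the other 3 by Dixon's criterion, which chance alone meets in about 1 of 20. In humanized vehicle livers replicate 1 stood high for the scavenger receptor Marco, at 52.7 CPM against 12.1 to 12.9 CPM in the others, and for the class II gene H2-Eb1, at 32.7 against 15.9 to 16.8 CPM. Wild-type vehicle replicate 2 stood high for Cd68, at 26.0 against 10.1 to 12.3 CPM, and for Tyrobp, at 24.4 against 10.2 to 12.3 CPM, while replicate 1 of that group was high for Msr1, at 19.4 against 15.1 to 15.8 CPM. In wild-type TCPOBOP livers replicate 2 was low for Msr1, at 12.3 against 18.7 to 19.8 CPM, and replicate 3 was low for Laptm5, at 20.3 against 23.4 to 23.9 CPM. Humanized TCPOBOP replicate 3 stood high for H2-Ab1, at 37.9 against 14 to 15.6 CPM, and for Spi1, at 9.94 against 4.58 to 5.45 CPM. Replicate 4 of that group did not share these last values, although it lay with replicate 3 for most of the Kupffer cell genes.

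The interaction between strain and TCPOBOP passed the threshold for Cd163 (1.85 on the log2 scale), Slc40a1 (1.17) and Ccr2 (-2.45). The edgeR adjusted p were 0.0183, 0.0231 and 0.0265. That is 2 of 34 genes higher and 1 lower, against 3.48% and 3.98% of all tested genes. Slc40a1 and Ccr2, the latter on few counts, were each lost in 5 of the 16 fits without 1 library.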

How the results depend on the processing

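Of 4205 member values under 25 alternatives, 4011 kept their side of the threshold, 133 lost a call, 61 gained one and 0 called values changed sign, while 107 values that were not called did. Leaving out 1 library at a time gave, for TCPOBOP in wild-type liver, 0 to 1 members higher, 1 to 3 lower and 1068 to 2190 genes in all; in humanized liver, 0 to 3 higher, 0 to 1 lower and 74 to 960 in all; for the interaction, 1 to 7 higher, 0 to 1 lower and 575 to 1782 in all; between strains under vehicle, 6 to 21 lower and 621 to 3425 in all; and under TCPOBOP, 0 to 13 lower and 1963 to 4163 in all. Of the 18 members lower under vehicle, 5 passed in every fit without 1 library, and 14 in every other setting. In wild-type liver 1 member was higher and 2 lower by DESeq2, with no filter or with the 2 groups alone, and 1 was higher with the length and GC trend out. In humanized liver 771 genes passed by DESeq2, 801 with the trend out, 182 with the groups alone and 209 with the replicate block. There 0 members were higher with summed accessions, the groups alone or the replicate block (DESeq2 gave 1), and 0 were lower with the groups alone or thinned libraries. For the interaction 1474 genes passed by DESeq2 and 1691 with the trend out, and 0 members were lower in thinned libraries. Between strains under TCPOBOP 2 members were lower with the groups alone or genes with a length alone, and 1 in thinned libraries. The causes of these changes were not tested. Under the replicate block 15 members were lower under vehicle and 14 of the 18 were kept. Same-numbered libraries correlated at 0.10 to 0.58 in wild-type liver, where 3 of 4 matched their own number best, and at -0.24 to 0.07 in humanized liver, so the numbers were not taken to pair libraries, although in wild-type liver 3 of 4 correlations were above 0.1, a hint from the data and not from the design. Depth limits Ccr2 most, with 15 counts in its lowest group.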
